A study of Mus musculus with 28 samples.

Results

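The response of Ehmt1 knockout (KO) embryonic stem cells to withdrawal of 2i was set against the response of wild-type (WT) cells, gene by gene. The measure is the genotype by stage interaction: the log2 change from the naive state to 32 h in Ehmt1 KO cells minus the same change in WT cells. It was read from 8 of the 28 libraries of the series. Of 15667 genes tested, 291 were called for the interaction (adjusted p under 0.05), and these 291 genes are described here by whether they failed to fall, failed to rise or differed between genotypes already in 2i.

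All cells came from RGd2, a female mouse line that carries a destabilised GFP and a blasticidin resistance gene at the Rex1 (Zfp42) locus. Cells at the stage named ESC were kept in N2B27 medium with 2i (the Gsk3 inhibitor CHIR99021 and the Mek inhibitor PD0325901), and cells at 32 h had been without 2i for that time. The 8 libraries were WT at ESC, WT at 32 h, Ehmt1 KO at ESC and Ehmt1 KO at 32 h, with n = 2 in each group, made from polyA RNA. The WT replicates were the lines named Ehmt1_WT (replicate 1) and Zic2_WT (replicate 2), and the KO replicates were the lines KO1 and KO2. The other 8 polyA libraries, from Zic2 KO and Ehmt1/Zic2 double KO lines at the same stages, shared the estimate of the spread and served as a separate check. Each genotype rests on 2 lines, each line was sequenced once per stage, and the labels give neither the lesion nor any rescue of Ehmt1. A difference between KO and WT therefore cannot be told apart from a difference that both KO lines gained in another way.

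Ehmt1 (GLP) pairs with Ehmt2 (G9a) to place mono- and dimethylation on lysine 9 of histone H3, a mark of silenced chromatin. In 2i, embryonic stem cells hold the naive state through a network of transcription factors that includes Esrrb, Nanog, Klf4, Tfcp2l1, Tbx3 and Prdm14. When 2i is withdrawn, Erk signalling returns, this network is shut down and formative genes such as Fgf5, Otx2 and Pou3f1 come on.

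Total counts ran from 19013882 to 25403384 in the 8 libraries. Ehmt1 transcript was 80.3 and 93.4 CPM (counts scaled to a common library total) in WT at ESC and went to 149 and 154 CPM in WT at 32 h. In KO it was 24.9 and 17.6 CPM, then 31.4 and 22.6 CPM, so the KO libraries lay below the WT libraries at each stage. Its interaction was -0.46 ± 0.23 (log2 ± SE, adjusted p = 0.42). Pou5f1, which pluripotent cells express, ranged from 1383 to 1888 CPM over the 8 libraries. Markers of other cells are given in CPM of the unscaled totals. Summed over 16 primitive endoderm genes the level was 301 to 319 in WT and 235 to 273 in KO at ESC, and 293 to 301 in WT and 284 to 286 in KO at 32 h. Most of that was Sparc and Lamb1. The defining factors of primitive endoderm went different ways: Gata4 was 5.77 to 9.83 in WT and 0.999 to 3.19 in KO, Pdgfra 1.14 to 1.84 in WT and 3.73 to 9.57 in KO, Sox17 at most 1.22, and Gata6 6.18 in KO2 at 32 h and at most 1.35 in the other 7 libraries. Of the other listed genes, Hnf4a was 0.163 to 1.09 in WT and 4.89 to 20.2 in KO. Cubn was 0.416 to 2.25 in WT and 1.05 to 11.6 in KO. Summed over 13 fibroblast markers the level was 1258 to 1685 in WT and 1582 to 1677 in KO at ESC, and 605 to 657 in WT and 971 to 1023 in KO at 32 h. Most of that was Fn1 and Vim: the other 11 summed to 9.93 to 12.2 in WT and 18.4 to 19.4 in KO at ESC, and 25.4 to 30.1 in WT and 27.9 to 33.0 in KO at 32 h. Col1a1 was at most 0.905, Col1a2 was 3.94 in KO2 at 32 h and at most 0.841 elsewhere, and Lum and Postn were each at 0 in 5 of the 8 libraries. Trophoblast genes summed to 101 to 103 in WT and 99.2 to 119 in KO at ESC, and 50.7 to 56.0 in WT and 41.8 to 53.2 in KO at 32 h. Summed over the 16 counted 2-cell-like genes, levels were 4.93 to 7.62 CPM in WT and 46.7 to 78.2 CPM in KO at ESC, and 12.9 to 14.9 CPM in WT and 48.7 to 57.8 CPM in KO at 32 h. The part of these other cells in the results below was not tested. In bulk RNA, fewer cells of a type and less RNA per cell cannot be told apart.

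The interaction was called for 1.86% of the genes tested, with 189 higher (1.21%) and 102 lower (0.651%) in the KO response than in the WT response. Most of them were genes that moved in WT and moved less in KO. Among the 291, 166 failed to fall: they fell in WT and the KO response lay above the WT response. Another 89 failed to rise: they rose in WT and the KO response lay below it. The interaction added to the WT change for 10 genes, and for 26 genes the WT change itself was not called. The WT response was called for 35.7% of genes and the Ehmt1 KO response for 22.5%. These classes share the WT libraries with the interaction, so their sizes describe the calls and are no further test.

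**Figure D1:**
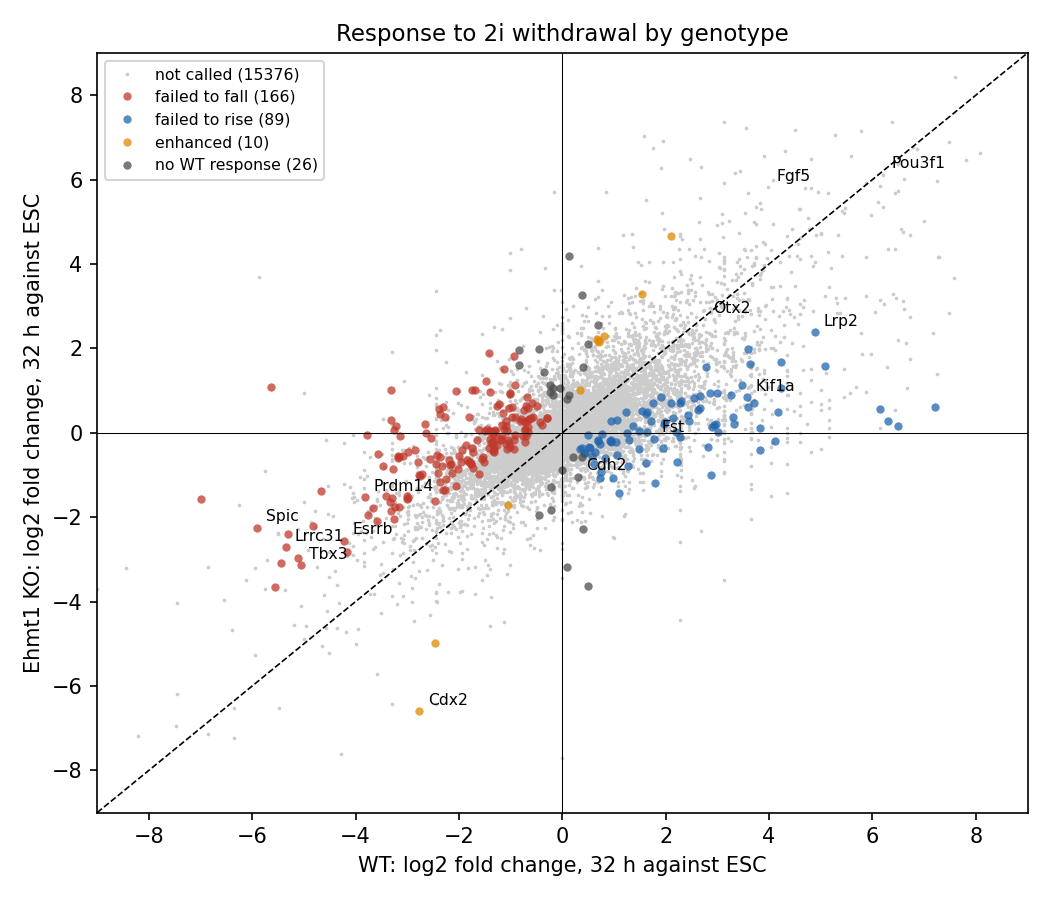
Log2 fold change from ESC to 32 h in WT (horizontal) and Ehmt1 KO (vertical), 1 point per gene, for 15667 genes; the dashed line marks equal responses and colours mark the classes. The 166 genes that failed to fall lie to the left and above the line, and the 89 that failed to rise lie to the right and below it.

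Few of these genes moved the other way in KO. Of the 166 genes that failed to fall, 62 still fell in KO by their own test, 87 passed no test in KO and 17 rose in KO. Their median log2 change was -1.74 in WT and -0.24 in KO. Of the 89 genes that failed to rise, 19 still rose in KO, 58 passed no test and 12 fell. Their medians were 1.97 in WT and 0.16 in KO.

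How many genes were called rested on some of the single libraries and on the lines. Some genes below are said to keep the call without any 1 library. Without the line Ehmt1_WT at both stages, each such call but that of Cdhr1 was lost. Leaving out WT ESC replicate 2 or Ehmt1 KO 32 h replicate 2 moved the count little, though it changed which genes were called. Without WT 32 h replicate 2 the count was 42, and without WT 32 h replicate 1 it was 55. It was 103 without WT ESC replicate 1, 149 and 197 without Ehmt1 KO ESC replicates 1 and 2, and 127 without Ehmt1 KO 32 h replicate 1. Left out at both stages, the line Ehmt1_WT left 2 calls, Zic2_WT 19, KO1 46 and KO2 187. With the line as a block, which uses that each line was sampled at both stages, 1361 genes were called (8.69%; 4.88% higher, 3.81% lower), and all 291 were among them. DESeq2 called 632 of the 14148 genes it gave an adjusted p (4.47%; 2.56% higher, 1.91% lower). Of these 1361, 56.1% were higher in the KO response, against 64.9% of the 291. With the block, 601 genes failed to fall and 500 failed to rise, and the KO response was called for 5509 genes against 3526 without it.

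The same loss of Ehmt1 on a Zic2 KO background gave a check in libraries that the interaction contrast does not use. Those libraries did enter the filter and the estimate of the spread by which the 291 were called. The calls are therefore not fully separate, and what this adds to the share called again was not tested. The double KO response minus the Zic2 KO response was fitted on those 8 libraries alone, where 451 of 15406 genes were called (2.93%; 1.86% higher, 1.07% lower). Of the 291 genes, 290 had the same sign there, against 74.8% of the 15075 genes not called. In that fit 161 of the 291 (55.3%) were called in the same direction and 0 in the opposite one. By class, 110 of the 166 genes that failed to fall and 41 of the 89 that failed to rise were called again. The labels do not say whether the double KO lines were made from the Ehmt1 KO or the Zic2 KO lines. The number of calls in those libraries rested on single libraries too: it was between 35 and 59 without any 1 Zic2 KO library, 886 and 900 without either double KO ESC library, 273 without double KO 32 h replicate 2 and 1876 with the line as a block.

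**Figure D2:**
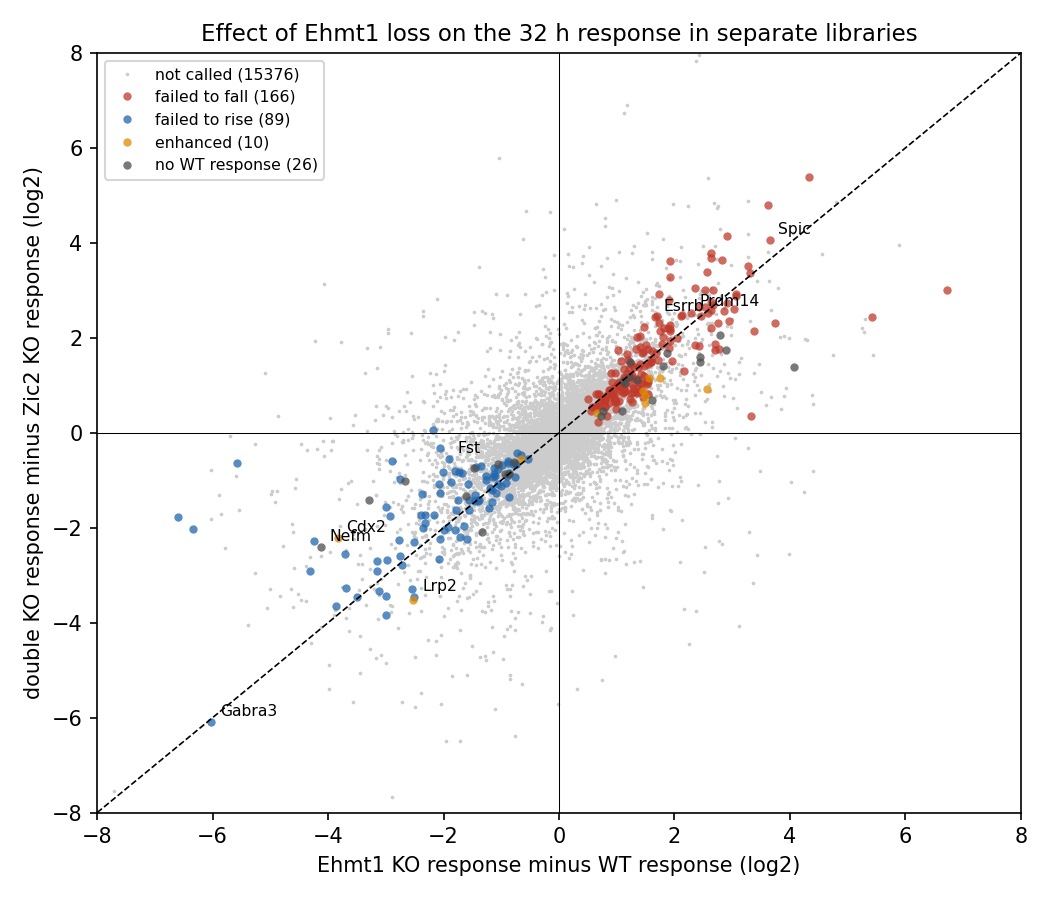
Effect of Ehmt1 loss on the 32 h response (log2) with Zic2 present (horizontal: Ehmt1 KO minus WT) and in Zic2 KO cells (vertical: double KO minus Zic2 KO), from libraries that are not shared. The called genes, in colour, lie in the lower left and the upper right, with 1 exception.

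A direct test of whether the effect of Ehmt1 loss on the response differs between the WT and the Zic2 KO background called 0 genes by edgeR's quasi-likelihood test. At an unadjusted p under 0.05, 257 genes (1.64%) passed, and 21 of them were among the 291. This does not show that the effects were equal. The share that passed lies under the 0.05 that would pass with no difference in any gene, so the test was a cautious one.

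The WT direction that defines the classes was also read in WT libraries of another kit. In the ribo-depleted WT libraries (lines WT and Zfp281_WT), 25.9% of genes were called between ESC and 32 h, 11% lower and 15% higher. There, 125 of the 166 genes that failed to fall fell, 58 of the 89 that failed to rise rose, and 0 of either class were called in the opposite direction. Without the line Zfp281_WT at both stages these counts were 147 and 66, where 44.3% of genes were called, 22.7% lower and 21.5% higher. Genes picked by the ribo-depleted WT response alone, with no use of the 8 libraries, also moved less in KO than in WT at the median. The 2079 genes that fell there had a median log2 change of -0.85 in the polyA WT libraries and -0.53 in Ehmt1 KO. Line by line, these medians were -0.89 and -0.81 in WT and -0.48 and -0.58 in KO. The 2811 genes that rose there had medians of 0.61 in WT and 0.38 in KO.

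When the 2i difference between KO and WT was laid beside the class, the classes separated. In 2i, 26.9% of all genes were called between KO and WT (14.8% higher, 12.1% lower), and at 32 h 26.6% (15.1% higher, 11.4% lower). Of the 166 genes that failed to fall, 72 were not called in 2i, 76 were lower in KO and 18 were higher in KO. Of the 89 that failed to rise, 71 were already higher in KO in 2i, 17 were not called and 1 was lower. With the line as a block, 251 of 601 genes that failed to fall and 315 of 500 that failed to rise were called in 2i. A 2i difference enters the interaction with its sign reversed, so a gene that starts high in KO tends to a lower interaction by construction. The 2i difference was therefore also read in the double KO and Zic2 KO libraries, a comparison chosen after the data were seen: 69 of the 71 were higher in double KO than in Zic2 KO in 2i, 62 of the 76 were lower and 14 of the 18 were higher. Of the genes with no call in 2i here, some were called there: 8 higher and 15 lower of the 72 that failed to fall, and of the 17 that failed to rise, 4 higher and 1 lower. On that contrast 20% of all genes were called higher and 15.1% lower. Of the 72 genes that failed to fall with no call in 2i, 66 were higher in double KO than in Zic2 KO at 32 h, where 20.9% of all genes were.

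**Figure D3:**
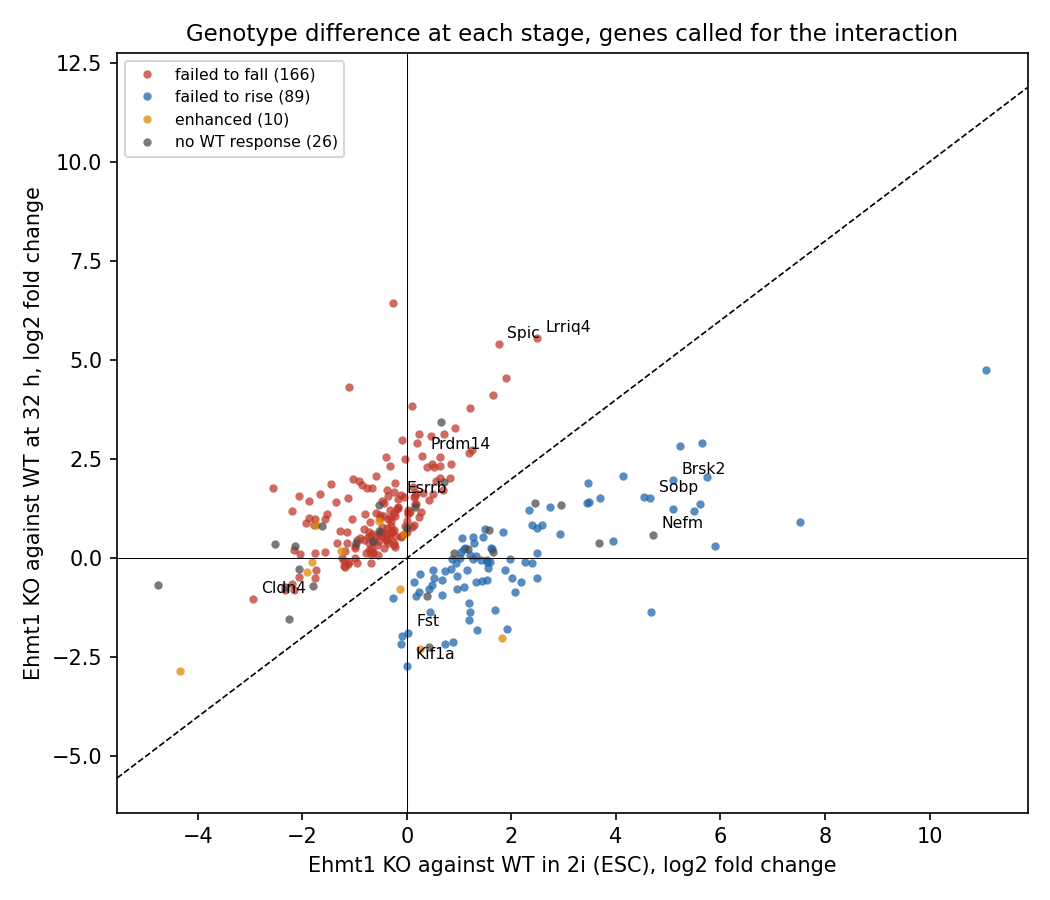
Log2 difference between Ehmt1 KO and WT in 2i (horizontal) and at 32 h (vertical) for the 291 genes called for the interaction; distance from the dashed line is the interaction. Genes that failed to fall lie above the line, and 124 of these 166 lie left of 0 in 2i; 86 of the 89 genes that failed to rise lie right of 0, 71 of them called.

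The levels of these sets come from the libraries whose calls define them, so they describe the sets and are no further test. For the 72 genes that failed to fall with no call in 2i, the median level was 59.5 CPM in WT and 55.4 CPM in KO at ESC, then 15.8 CPM in WT and 42.0 CPM in KO at 32 h. For the 76 genes lower in 2i, it was 52.5 CPM in WT and 22.1 CPM in KO at ESC, then 19.3 CPM and 24.0 CPM at 32 h. At 32 h, 42 of these 76 were not called, 31 were higher and 3 were lower in KO. For the 71 genes that failed to rise and were higher in 2i, the median was 3.96 CPM in WT and 15.2 CPM in KO at ESC, then 12.0 CPM and 15.4 CPM at 32 h. At 32 h, 36 of these 71 were not called, 25 were higher and 10 were lower in KO.

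Transcription factors of the naive network were prominent among the genes that failed to fall. Of 14 in the list, 8 were called, all higher in the KO response, and 0 lower: Esrrb, Zfp42, Prdm14, Nanog, Klf4, Tcl1, Tbx3 and Tfcp2l1. Over all genes tested, 1.21% were called higher. Tcl1, which the list holds beside the factors, is a cofactor of the kinase Akt. All 8 fell in WT, and all 8 still fell in KO, by less. The median interaction over the 14 was 1.38, against -0.0017 over all genes tested. The list was drawn up with earlier results of these data known, so this count is a description.

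Esrrb, an orphan nuclear receptor of the naive network, was 788 and 757 CPM in WT at ESC and fell to 40.6 and 42.4 CPM at 32 h. In KO it went from 611 and 763 CPM to 122 and 112 CPM. The groups overlapped in 2i and not at 32 h, where each KO library held more than each WT library. The response was -4.22 ± 0.15 in WT and -2.56 ± 0.14 in KO, an interaction of 1.66 ± 0.19 (adjusted p = 0.0022), and it was 2.44 ± 0.18 in the separate libraries.

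Nanog, a homeobox factor of the network, was 641 and 659 CPM in WT and 664 and 777 CPM in KO at ESC. At 32 h it was 67.7 and 76.8 CPM in WT and 258 and 168 CPM in KO. Both KO libraries at 32 h lay above both WT libraries, and KO1 stood higher than KO2. Its interaction was 1.41 ± 0.22 (adjusted p = 0.0093).

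Zfp42 (Rex1), at whose locus the reporter sits, was 326 and 329 CPM in WT and 342 and 379 CPM in KO at ESC, and 69.8 and 74.7 CPM in WT and 244 and 179 CPM in KO at 32 h. Prdm14, a repressor of Fgf receptor and DNA methyltransferase genes, was 25.4 and 26.5 CPM in WT and 33.8 and 30.0 CPM in KO at ESC. At 32 h Prdm14 was 1.97 and 1.70 CPM in WT and 14.5 and 7.77 CPM in KO. For each gene the KO libraries at 32 h exceeded the WT libraries. The interaction was 1.41 ± 0.19 for Zfp42 (adjusted p = 0.0043) and 2.29 ± 0.34 for Prdm14 (adjusted p = 0.0073).

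Tfcp2l1, a target of Lif and Stat3 signalling, was 479 and 573 CPM in WT and 348 and 471 CPM in KO at ESC. At 32 h it was 29.5 and 28.9 CPM in WT and 59.6 and 56.6 CPM in KO. It was thus lower in the mean of KO at ESC, with no call there, and higher in KO at 32 h; its interaction was 1.35 ± 0.25 (adjusted p = 0.017). Esrrb and Zfp42 kept the call without any 1 of the 8 libraries, though not without the line Ehmt1_WT at both stages. Prdm14 lost it without WT 32 h replicate 2 (adjusted p = 0.053), Nanog without WT 32 h replicate 1 (0.060), and Tfcp2l1 without either WT 32 h library (0.086 and 0.095) and without KO1 at ESC (0.053) or at 32 h (0.054). In the separate libraries the 2i difference was called for Prdm14 (0.60, adjusted p = 0.012) and Tfcp2l1 (-0.61, adjusted p = 0.024) and not for Esrrb, Nanog or Zfp42.

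Klf4, Tbx3 and Tcl1 differed from these in being higher in KO already in 2i. Klf4, a zinc finger factor downstream of Stat3, was 27.9 and 26.0 CPM in WT and 58.2 and 70.4 CPM in KO at ESC, and 2.37 and 3.03 CPM in WT and 16.7 and 19.1 CPM in KO at 32 h. Tbx3, a T-box factor, was 132 and 128 CPM in WT and 192 and 210 CPM in KO at ESC, and 3.55 and 4.19 CPM in WT and 21.6 and 24.1 CPM in KO at 32 h. For both genes all KO libraries lay above all WT libraries of the same stage, with the wider gap at 32 h. The KO to WT difference of Klf4 was 1.25 in 2i and 2.73 at 32 h (log2), and that of Tbx3 was 0.63 and 2.56. Tcl1 was 91.3 and 66.7 CPM in WT and 111 and 133 CPM in KO at ESC, and 8.42 and 7.18 CPM in WT and 46.9 and 31.6 CPM in KO at 32 h. The interaction was 1.47 ± 0.25 for Klf4, 1.93 ± 0.33 for Tbx3 and 1.70 ± 0.29 for Tcl1 (adjusted p = 0.012, 0.014 and 0.014). Klf4 lost the call without WT 32 h replicate 1 (0.083), and Tbx3 and Tcl1 lost it without WT ESC replicate 1 or either WT 32 h library (up to 0.086 and 0.089). The 2i difference was called in the separate libraries for Klf4 (1.21) and not for Tbx3 (0.52, adjusted p = 0.15) or Tcl1 (0.39, 0.069).

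**Figure D4:**
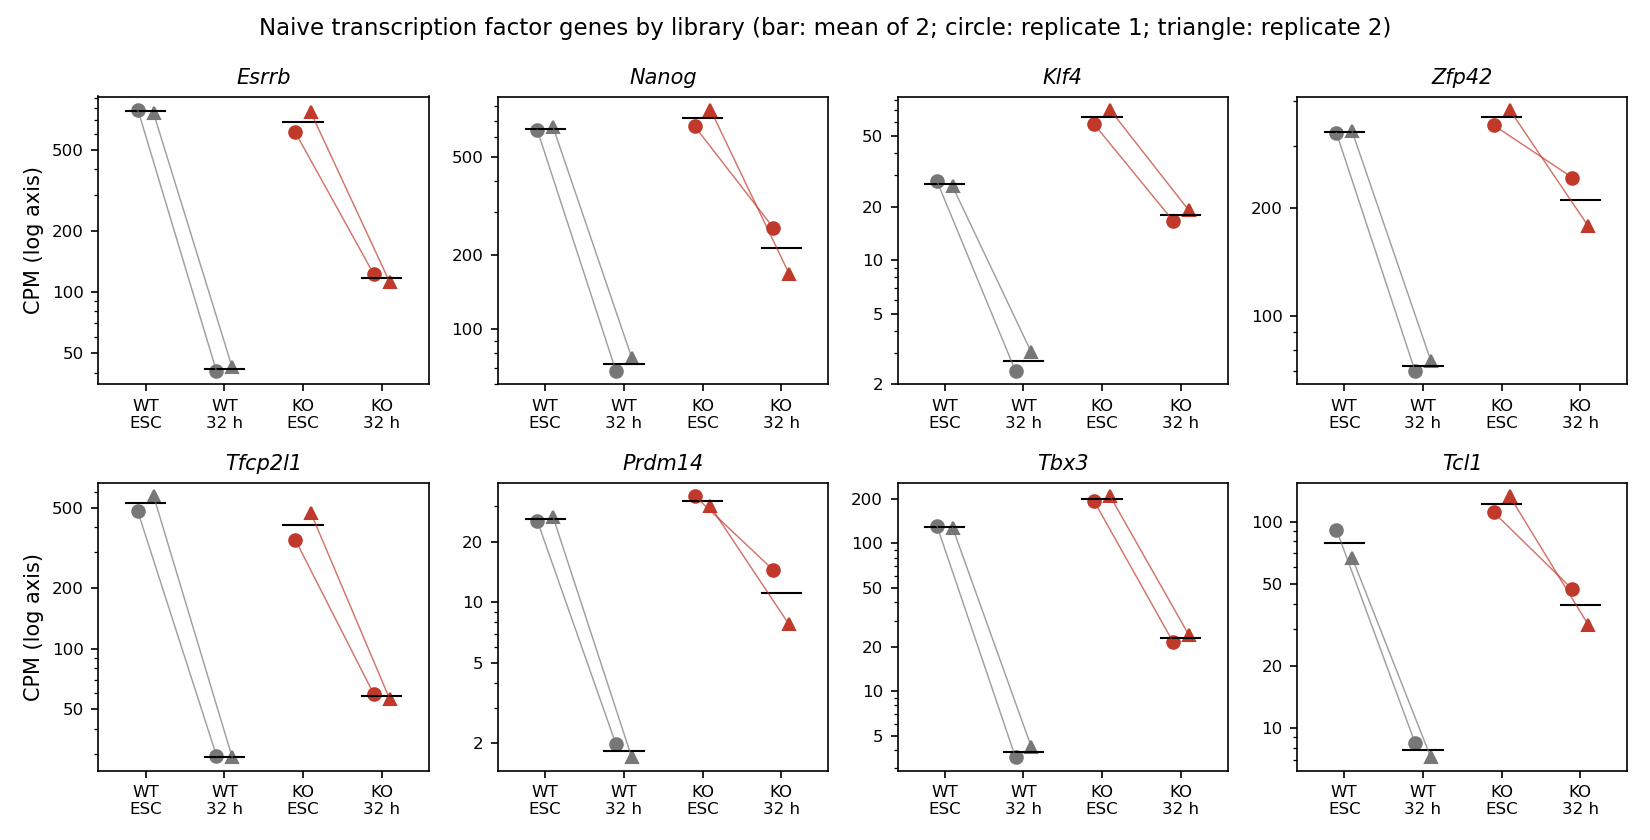
Level in CPM (log axis) of 8 naive network genes in each of the 8 libraries; circles are replicate 1, triangles replicate 2, lines join the stages of 1 line and bars are means of 2. KO (red) sits above WT (grey) at 32 h for each gene, and for Esrrb, Nanog, Zfp42, Tfcp2l1 and Prdm14 the genotypes were not called apart at ESC.

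The other 6 naive factors were not called by edgeR without the block. The values were 0.95 ± 0.32 for Klf2 (adjusted p = 0.17), 0.53 ± 0.22 for Nr5a2 (0.29), 1.31 ± 0.35 for Nr0b1 (0.088), 0.44 ± 0.36 for Klf5 (0.68), 0.41 ± 0.13 for Mybl2 (0.15) and -1.20 ± 0.63 for Gbx2 (0.44). Nr0b1 was called with the line as a block (1.28, adjusted p = 0.0045), and DESeq2 called Nr0b1 (adjusted p = 0.014) and Mybl2 (0.048). At an unadjusted p under 0.05, 12 of the 14 factors passed in edgeR, where 13.7% of all genes did. Klf2, a relative of Klf4, and Nr5a2, an orphan nuclear receptor, still fell in KO, from 332 and 317 CPM to 122 and 122 CPM and from 149 and 150 CPM to 35.6 and 25.6 CPM.

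Among 14 downstream naive genes, 3 were called, all higher: Spp1, Fbxo15 and Zfp57. Over all genes tested, 1.21% were called higher. With the line as a block 8 were called, 7 higher and 1 lower, against 8.69% of all genes (4.88% higher, 3.81% lower). Spp1, the secreted protein osteopontin, was 312 and 294 CPM in WT and 167 and 255 CPM in KO at ESC, and 69.0 and 64.0 CPM in WT and 151 and 119 CPM in KO at 32 h. The order of the genotypes turned between the stages. Fbxo15, a long-used marker of pluripotent cells, went from 236 and 209 CPM to 102 and 94.3 CPM in WT. In KO it was 384 and 338 CPM, then 370 and 282 CPM, and its fall in KO was not called. Zfp57, which guards imprints, had an interaction of 0.56 ± 0.13 (adjusted p = 0.043) that was lost without any 1 of 7 of the 8 libraries (adjusted p up to 0.17). Spp1 lost the call without either WT 32 h library (up to 0.070), and Fbxo15 also without WT ESC replicate 1 (up to 0.095).

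Outside the naive lists, the genes that failed to fall with no call in 2i included some whose change in KO was not called. Cdhr1, a cadherin-like protein, was 38.7 and 52.7 CPM in WT and 35.0 and 34.2 CPM in KO at ESC, and 9.26 and 8.13 CPM in WT and 63.4 and 38.5 CPM in KO at 32 h. Its interaction was 2.95 ± 0.31 (adjusted p = 0.0022) and was 2.35 ± 0.21 in the separate libraries. Ngfr, the low-affinity neurotrophin receptor, was 82.2 and 73.0 CPM in WT and 82.1 and 64.0 CPM in KO at ESC, and 5.79 and 7.22 CPM in WT and 67.6 and 35.8 CPM in KO at 32 h. In both genes the KO libraries at 32 h stood clear of the WT libraries and apart from each other, with KO1 the higher. Genes outside the lists were named for a large interaction and for KO line responses outside both WT line responses. Gaps between their KO and WT libraries, here and below, thus follow in part from the choice and are no further test. Cdhr1 kept the call without any 1 library. Ngfr, at 3.07 ± 0.62 (adjusted p = 0.028), lost it without any 1 of 7 libraries (adjusted p up to 0.14).

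Gadd45b, a stress-responsive member of the Gadd45 family, was 16.0 and 11.5 CPM in WT and 10.2 and 8.02 CPM in KO at ESC, and 1.32 and 1.16 CPM in WT and 6.56 and 3.99 CPM in KO at 32 h. Anxa2, a calcium-dependent membrane-binding protein, was 35.2 and 30.9 CPM in WT and 21.9 and 14.7 CPM in KO at ESC. At 32 h Anxa2 was 10.7 and 9.87 CPM in WT and 45.8 and 28.4 CPM in KO. Both genes ended higher in KO than in WT in each library. At ESC both KO libraries lay below both WT libraries for each gene, with no call. Of the 72 genes that failed to fall with no call in 2i, 48 lay below 0 in 2i and 24 above. The missing call thus does not show equal starts. The interaction was 2.67 ± 0.40 for Gadd45b (adjusted p = 0.0073) and 2.70 ± 0.50 for Anxa2 (adjusted p = 0.018). Gadd45b lost the call without WT 32 h replicate 2 (adjusted p = 0.055), and Anxa2 lost it without WT ESC replicate 1, either WT 32 h library, KO2 at ESC or KO1 at 32 h (0.061 to 0.095).

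Genes of signalling pathways in this class were few. Id3, an inhibitor of DNA binding induced by Bmp signals, was 25.8 and 23.3 CPM in WT and 25.1 and 25 CPM in KO at ESC, and 5.18 and 5.06 CPM in WT and 13.4 and 10.2 CPM in KO at 32 h. Pcsk6, a convertase that processes Nodal, was 142 and 134 CPM in WT and 124 and 144 CPM in KO at ESC, and 23.6 and 26.3 CPM in WT and 42.5 and 45.4 CPM in KO at 32 h. The genotypes were close in 2i and apart at 32 h in both. Egr1, an immediate early target of Erk, went from 91.5 and 77.5 CPM to 44.4 and 27.5 CPM in WT, against 71.7 and 49.0 CPM to 118 and 76.5 CPM in KO. Its interaction was 1.92 ± 0.43 (adjusted p = 0.043) and was called again in the separate libraries at 3.28 ± 0.38 (adjusted p = 0.0080). Tead4, a transcription factor of the Hippo pathway that acts in trophoblast, was 20.8 and 26.5 CPM in WT and 16.4 and 18.8 CPM in KO at ESC, and 1.71 and 1.78 CPM in WT and 5.91 and 3.31 CPM in KO at 32 h. Plagl1, an imprinted zinc finger gene, fell by 5.55 in WT and by 3.66 in KO on the log2 scale. The calls of these 5 genes were lost in 4 to 7 of the 8 fits that left out 1 library (adjusted p up to 0.19).

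Of the 18 genes that failed to fall and were higher in KO in 2i, Spic and Lrriq4 had the largest interactions among the named genes. Spic, an Ets family factor, was 21.1 and 15.3 CPM in WT and 63.9 and 59.0 CPM in KO at ESC, and 0.439 and 0.166 CPM in WT and 17.5 and 8.41 CPM in KO at 32 h. Its interaction was 3.65 ± 0.63 (adjusted p = 0.014), and the call was lost without WT ESC replicate 1 (0.052), WT 32 h replicate 1 (0.052) or WT 32 h replicate 2 (0.10). Notum, a deacylase that shuts off Wnt ligands, was 51.9 and 38.0 CPM in WT and 94.2 and 67.5 CPM in KO at ESC, and 5.26 and 5.85 CPM in WT and 36 and 21.7 CPM in KO at 32 h. All KO libraries exceeded all WT libraries of the same stage for Spic and for Notum. The interaction of Notum, 1.53 ± 0.33 (adjusted p = 0.037), was lost without any 1 of 5 libraries (up to 0.16).

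Lrriq4 and Lrrc31 are neighbours on chromosome 3 (GRCm38.p6; Lrriq4 at chr3:30644487-30672434 and Lrrc31 at chr3:30678554-30699843) and carry leucine-rich repeats. Lrriq4 was 5.94 and 6.56 CPM in WT and 41.0 and 29.2 CPM in KO at ESC, and 0.833 and 0.581 CPM in WT and 39.4 and 27.3 CPM in KO at 32 h. Its change in KO was -0.07 ± 0.20 and was not called. Lrrc31 was 41.4 and 47.8 CPM in WT and 36 and 35.3 CPM in KO at ESC, and 1.05 and 1.12 CPM in WT and 5.77 and 5.14 CPM in KO at 32 h. In 2i, Lrriq4 was higher in KO and Lrrc31 was not called, and both were higher in KO at 32 h. The interactions, 3.06 ± 0.36 and 2.64 ± 0.34, kept the call without any 1 library. Another called gene, Lrrc34 (chosen after its values were seen), overlaps Lrriq4, and with no strand setting given the reads of the overlap cannot be told apart.

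The 76 genes that failed to fall and were lower in 2i started lower in KO, and their median level there, 22.1 CPM at ESC, was 24.0 CPM at 32 h. Lgals3, the glycan-binding protein galectin-3, was 40.8 and 44.0 CPM in WT and 24.2 and 21.0 CPM in KO at ESC, and 6.23 and 7.26 CPM in WT and 27.4 and 24.6 CPM in KO at 32 h. It fell by 2.65 ± 0.23 in WT and changed by 0.20 ± 0.21 in KO, an interaction of 2.85 ± 0.31 (adjusted p = 0.0022). Tmem106a, a transmembrane protein, was 13.2 and 14.6 CPM in WT and 4.50 and 3.01 CPM in KO at ESC, and 2.94 and 2.70 CPM in WT and 6.93 and 4.58 CPM in KO at 32 h. In both genes KO lay below WT at ESC and above it at 32 h, with no overlap of libraries. Both were picked for KO line responses outside the WT ones, so this describes them and is no further test.

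Cldn4, a claudin of tight junctions, was 94.3 and 94.2 CPM in WT and 9.91 and 14.5 CPM in KO at ESC, and 44.7 and 49.2 CPM in WT and 22.4 and 23.6 CPM in KO at 32 h. Cldn4 differed from the genes above in staying lower in KO at 32 h. Pou2f3, a POU domain factor, was 13.6 and 19.4 CPM in WT and 2.61 and 6.07 CPM in KO at ESC, and 3.64 and 2.78 CPM in WT and 5.58 and 6.22 CPM in KO at 32 h; its 32 h difference was not called.

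Lgals3 and Tmem106a kept the interaction call without any 1 library, and Cldn4 lost it without any 1 of 7 (adjusted p up to 0.16). Pou2f3 lost it without any 1 of 6 (up to 0.12), and Col13a1 without WT 32 h replicate 2 (0.073). Col13a1, a membrane collagen, fell by 3.26 ± 0.39 in WT and changed by 0.06 ± 0.37 in KO on the log2 scale. It was 7.13 and 6.46 CPM in WT and 1.56 and 2.16 CPM in KO at ESC, and 0.833 and 0.581 CPM in WT and 1.44 and 2.39 CPM in KO at 32 h. In the separate libraries the 2i difference of Lgals3 was not called (-0.41, adjusted p = 0.25), whereas those of Tmem106a (-1.90), Cldn4 (-2.59), Pou2f3 (-2.77) and Col13a1 (-2.11) were.

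The 17 genes that failed to rise with no call in 2i were all called lower in KO at 32 h. The 32 h difference is the 2i difference plus the interaction, so this follows largely from how the set is defined. Their 2i difference had a median of 0.42 (log2) and was above 0 in 15 of them, so the missing call does not show equal starts. Kif1a, a kinesin motor of axonal transport, was 7.70 and 6.66 CPM in WT and 5.14 and 9.39 CPM in KO at ESC, and 96.5 and 74.0 CPM in WT and 10.3 and 15.7 CPM in KO at 32 h. The groups overlapped at ESC and lay far apart at 32 h. Kif1a rose by 3.57 ± 0.34 in WT, its change in KO was 0.85 ± 0.33 (adjusted p = 0.083), and the interaction was -2.72 ± 0.46 (adjusted p = 0.013). In the separate libraries it was -2.78 ± 0.45, also called, but there Kif1a was higher in double KO than in Zic2 KO already in 2i (1.29, adjusted p = 0.021).

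Cdc14b, a dual-specificity phosphatase, was 10.3 and 16.6 CPM in WT and 13.9 and 11.4 CPM in KO at ESC, and 37.2 and 38.2 CPM in WT and 9.63 and 9.65 CPM in KO at 32 h. Fst, the secreted activin antagonist follistatin, was 3.52 and 5.41 CPM in WT and 3.72 and 5.38 CPM in KO at ESC, and 13.9 and 16.5 CPM in WT and 3.35 and 4.86 CPM in KO at 32 h. Neither gene changed by its own test in KO. The interaction was -1.88 ± 0.28 for Cdc14b (adjusted p = 0.0073; -1.04 ± 0.20 in the separate libraries, adjusted p = 0.035) and -1.90 ± 0.42 for Fst (adjusted p = 0.043). Fst was not called in the separate libraries (-0.55 ± 0.39, adjusted p = 0.58), where Zic2 KO went from 5.81 and 6.0 CPM to 8.22 and 6.10 CPM.

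Hk2, a hexokinase that starts glycolysis, was 62.7 and 52.0 CPM in WT and 61.9 and 92.1 CPM in KO at ESC, and 148 and 146 CPM in WT and 75.4 and 97.2 CPM in KO at 32 h. Of 16 glycolysis genes, Hk2 alone was called (2 with the block), where 1.86% of all genes were called (8.69% with the block). Gulp1, an adaptor of engulfment, was 1.19 and 1.75 CPM in WT and 1.93 and 2.06 CPM in KO at ESC, and 9.91 and 8.84 CPM in WT and 3.07 and 4.22 CPM in KO at 32 h. Cdc14b kept the interaction call without any 1 library, Kif1a lost it without WT ESC replicate 1 (adjusted p = 0.051) or WT 32 h replicate 1 (0.065), and Fst, Hk2 and Gulp1 lost it in 6 of 8 (up to 0.16).

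**Figure D5:**
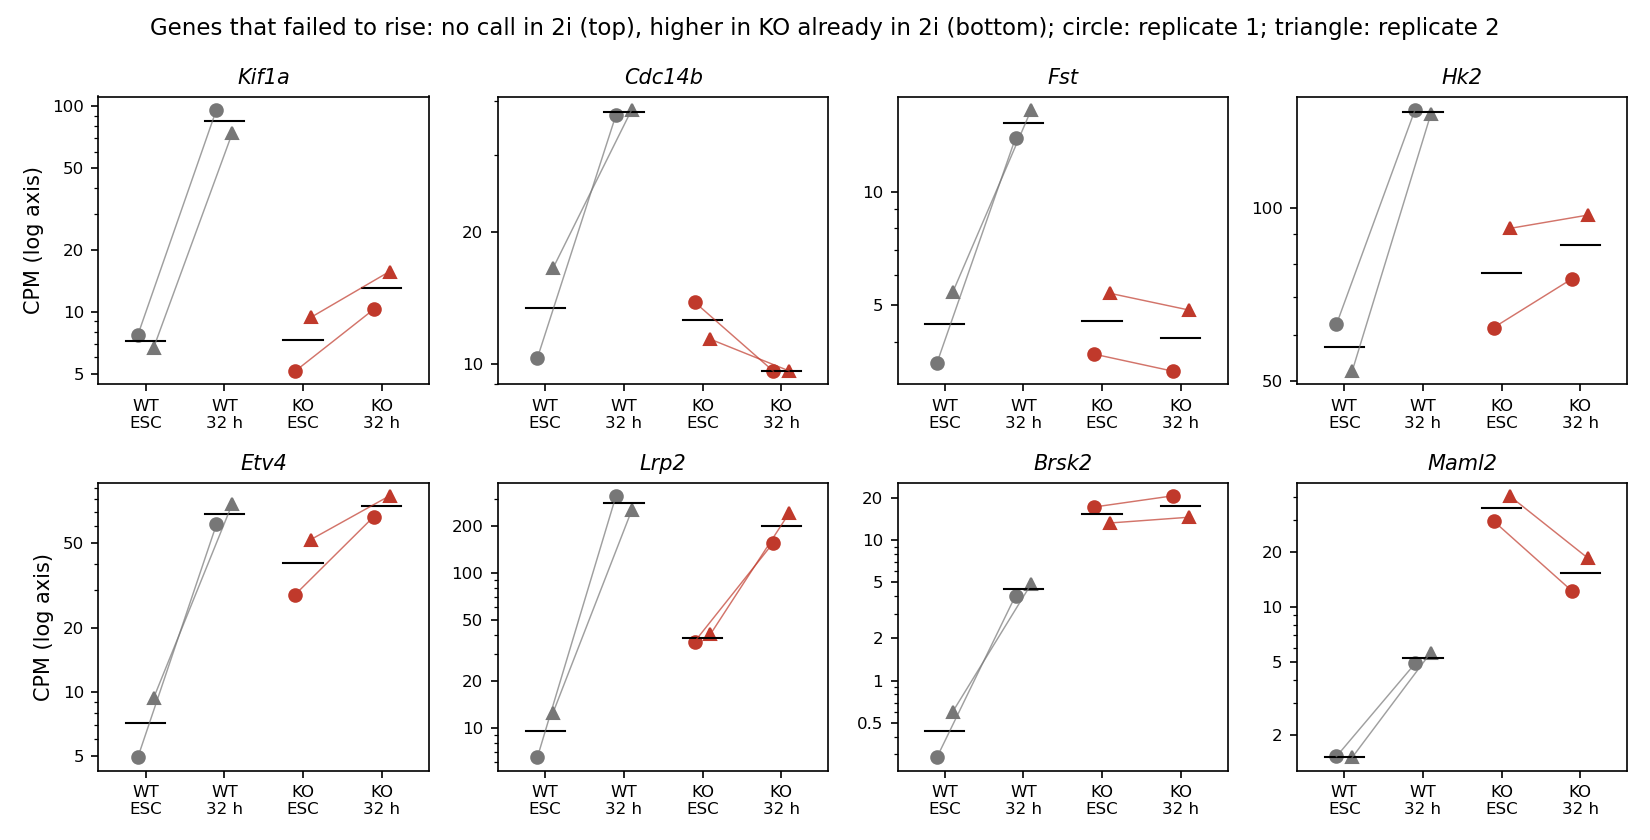
Level in CPM (log axis) of 8 genes that failed to rise in each of the 8 libraries; circles are replicate 1, triangles replicate 2, lines join the stages of 1 line and bars are means of 2. In the top row KO (red) was not called apart from WT (grey) at ESC and ends below it; in the bottom row KO starts above WT.

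For the 71 genes that failed to rise and were higher in KO in 2i, the median level in KO at ESC was 15.2 CPM. In WT at 32 h it was 12.0 CPM. Gene by gene, the median KO to WT difference in 2i was 1.68 (log2), below the median WT rise of 1.99. The medians of the levels thus do not place each gene above its own WT 32 h level. Etv4, an Ets factor induced by Fgf and Erk signalling, was 4.94 and 9.37 CPM in WT and 28.6 and 51.9 CPM in KO at ESC, and 61.1 and 76.1 CPM in WT and 66.4 and 83.1 CPM in KO at 32 h. Etv1, its relative, was 9.79 and 13.7 CPM in WT and 36.5 and 31.8 CPM in KO at ESC, and 37.3 and 36.3 CPM in WT and 32.7 and 36.1 CPM in KO at 32 h. The groups were apart at ESC, and at 32 h neither gene was called between genotypes. The interaction was -2.37 ± 0.41 for Etv4 (adjusted p = 0.014) and -1.64 ± 0.32 for Etv1 (adjusted p = 0.023).

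Tet3, a dioxygenase that oxidises 5-methylcytosine, was 4.33 and 7.61 CPM in WT and 23.8 and 23.0 CPM in KO at ESC, and 34.4 and 29.7 CPM in WT and 26.5 and 36.2 CPM in KO at 32 h. Its interaction of -2.00 ± 0.31 (adjusted p = 0.0078) was -2.05 ± 0.19 in the separate libraries. Lrp2, the endocytic receptor megalin, was 6.47 and 12.6 CPM in WT and 36.1 and 40.2 CPM in KO at ESC, and 313 and 253 CPM in WT and 156 and 242 CPM in KO at 32 h. Lrp2 rose in both genotypes, by 4.90 ± 0.30 in WT and 2.39 ± 0.26 in KO (log2), and its 32 h difference was not called. Tet3 and Lrp2 kept the call without any 1 library. Etv4 lost it without WT ESC replicate 1 (0.058), WT 32 h replicate 2 (0.073) or KO1 at 32 h (0.051), and Etv1 lost it without any 1 of 5 libraries (up to 0.099).

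Other genes of this kind stayed higher in KO at 32 h too. Brsk2, a neuronal kinase, was 0.285 and 0.601 CPM in WT and 17.2 and 13.2 CPM in KO at ESC, and 4.04 and 4.89 CPM in WT and 20.7 and 14.5 CPM in KO at 32 h. Sobp, a zinc finger protein, was 0.380 and 0.351 CPM in WT and 11.1 and 7.60 CPM in KO at ESC, and 2.63 and 2.57 CPM in WT and 7.68 and 7.21 CPM in KO at 32 h. Maml2, a coactivator of Notch, was 1.52 and 1.50 CPM in WT and 29.5 and 40.7 CPM in KO at ESC, and 4.91 and 5.64 CPM in WT and 12.2 and 18.5 CPM in KO at 32 h. All 3 rose in WT by their own test. In KO, Brsk2 and Sobp passed no test, and Maml2 fell by 1.19 ± 0.23. The interactions of these 3, between -3.15 and -2.99, kept the call without any 1 library and were called again in the separate libraries. Mapk10, the neuronal Jun kinase, was 0.143 and 0.0501 CPM in WT and 5.73 and 5.33 CPM in KO at ESC, and 1.27 and 1.62 CPM in WT and 5.21 and 6.70 CPM in KO at 32 h. Its call was lost without WT ESC replicate 1 or 2 or WT 32 h replicate 2 (up to 0.073).

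A smaller number ended lower in KO. Rfx4, an RFX family factor, was 0.618 and 0.451 CPM in WT and 1.42 and 2.06 CPM in KO at ESC, and 7.41 and 6.68 CPM in WT and 1.40 and 4.22 CPM in KO at 32 h. Gabra3, a subunit of the GABA-A receptor, was 0.0475 and 0.100 CPM in WT and 1.93 and 2.06 CPM in KO at ESC, and 6.62 and 5.72 CPM in WT and 1.35 and 3.43 CPM in KO at 32 h. Both lay above WT at ESC and below it at 32 h. The WT ESC level of Gabra3 rests on so few counts that no fold change is given. Rfx4 lost the interaction call without any 1 of 7 libraries (adjusted p up to 0.14), and Gabra3 lost it without WT ESC replicate 1 (0.052).

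The 71 genes that failed to rise and were higher in 2i spanned more of the genome than most. Their median gene span, from the RefSeq table of GRCm38.p6, was 76.1 kb, and 39.4% spanned over 100 kb. Over all genes tested the median was 22.4 kb and 13.3% spanned over 100 kb. Higher expression in KO in 2i went with longer genes in itself: the 2213 genes higher in KO in 2i with no interaction call had a median of 34.8 kb, and the 576 of them that also rose in WT had 44.3 kb. These spans are a description, and gene length was not tested against the interaction.

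In 10 genes the interaction added to the WT change. Nkx1-2, a homeobox gene, was 36.4 and 53.7 CPM in WT and 38.1 and 69.3 CPM in KO at ESC, and 6.36 and 10.04 CPM in WT and 0.791 and 2.51 CPM in KO at 32 h. Cdx2, a homeobox target of Wnt signals that also marks trophoblast, was 12.5 and 7.71 CPM in WT and 20.3 and 50.8 CPM in KO at ESC, and 0.877 and 2.07 CPM in WT and 0.140 and 0.558 CPM in KO at 32 h. Both fell further in KO, with interactions of -2.53 ± 0.57 (adjusted p = 0.043) and -3.83 ± 0.88 (adjusted p = 0.046). The KO2 library at ESC stood well above KO1 for Cdx2, and without it the call was lost (adjusted p = 0.11). Each of these 2 calls was lost in 6 of the 8 fits that left out 1 library (up to 0.26). The other gene that fell further, asparagine synthetase (Asns), went from 856 and 763 CPM to 387 and 391 CPM in WT and from 746 and 725 CPM to 221 and 229 CPM in KO. Its call was lost in all 8 such fits (adjusted p up to 0.15).

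Of the 7 genes that rose further in KO, 6 were lower in KO in 2i. Itga3, a laminin-binding integrin subunit, was 31.6 and 36.6 CPM in WT and 9.22 and 10.02 CPM in KO at ESC, and 103 and 95.1 CPM in WT and 91.2 and 95.7 CPM in KO at 32 h. It reached the WT level at 32 h from a lower start, with an interaction of 1.74 ± 0.20 (adjusted p = 0.0022) that kept the call without any 1 library. Gli1, a target and effector of Hedgehog signals, was 10.7 and 14.0 CPM in WT and 3.90 and 6.38 CPM in KO at ESC, and 21.9 and 18.2 CPM in WT and 21.3 and 24.6 CPM in KO at 32 h. Gli1 lost the interaction call without any 1 of 6 libraries (adjusted p up to 0.14).

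For 26 genes the WT change was not called. Among the 10 that were lower in the KO response, 8 were higher in KO in 2i. The neurofilament genes Nefm and Nefl, which lie side by side on chromosome 14, are the clearest. Another called gene of this kind, A230070E04Rik (picked out after its values were seen), overlaps Nefm. With no strand setting given, the reads of that overlap cannot be told apart. Nefm was 1.33 and 0.952 CPM in WT and 29.9 and 30.5 CPM in KO at ESC, and 1.58 and 1.66 CPM in WT and 2.05 and 2.83 CPM in KO at 32 h. Nefl was 12.1 and 11.1 CPM in WT and 93.8 and 85.6 CPM in KO at ESC, and 9.08 and 10.9 CPM in WT and 25.2 and 25.3 CPM in KO at 32 h. Each was far above WT in KO in 2i and fell after 2i was withdrawn, Nefm to a level not called apart from WT. The interaction was -4.12 ± 0.48 for Nefm (adjusted p = 0.0022), kept without any 1 library, and -1.62 ± 0.24 for Nefl (adjusted p = 0.0073), lost without WT 32 h replicate 2 (0.051). Jag1, a ligand of Notch, went from 105 and 129 CPM to 49.6 and 46.5 CPM in KO and from 19.6 and 23.1 CPM to 17.0 and 19.5 CPM in WT. N-cadherin (Cdh2) was 20.3 and 24.0 CPM in WT and 27.2 and 30.9 CPM in KO at ESC, and 27.2 and 27.1 CPM in WT and 12.0 and 16.2 CPM in KO at 32 h. Both KO libraries of Cdh2 lay above both WT libraries in 2i, where the difference was not called (0.39, adjusted p = 0.11), and below them at 32 h; in the separate libraries the 2i difference was called (0.48, adjusted p = 0.041). Cdh2 (-1.33 ± 0.24, adjusted p = 0.015) lost the call without any 1 of 5 libraries (up to 0.073), and Jag1 (-1.06 ± 0.21, adjusted p = 0.027) without any 1 of 6 (up to 0.13).

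Of the 16 genes higher in the KO response with no WT change, 10 were lower in KO in 2i. Itga5, the fibronectin receptor subunit, was 62.0 and 70.5 CPM in WT and 15.8 and 16.1 CPM in KO at ESC, and 53.5 and 50.3 CPM in WT and 42.9 and 43.8 CPM in KO at 32 h. Rasgrp2, an activator of Rap1, was 20.3 and 22.3 CPM in WT and 4.72 and 3.69 CPM in KO at ESC, and 31.6 and 28.2 CPM in WT and 16.5 and 19.6 CPM in KO at 32 h. Both rose in KO towards the WT level, and Rasgrp2 stayed lower at 32 h by the test. Apela, a peptide ligand of the apelin receptor, was not called in 2i and ended at 123 and 130 CPM in KO against 78.9 and 77.4 CPM in WT. Itga5 lost the interaction call without WT 32 h replicate 2 (0.057), Rasgrp2 without any 1 of 3 libraries (up to 0.095) and Apela without any 1 of 7 (up to 0.16).

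Most formative genes rose in each genotype. Of 20, 14 rose in WT and 12 in KO, where 17.9% and 11.5% of all genes did. For the interaction 3 of the 20 were called, all lower: Etv4, Fst and Cdh2. Over all genes tested, 0.651% were called lower. The median interaction of the 20 was -0.05. In the separate libraries 4 of the 20 were called, all lower, where 1.07% of all genes were. Their median there was -0.62, against -0.011 over all genes. Fgf5, a ligand that marks the formative state, went from 1.76 and 1.95 CPM to 32.7 and 26.1 CPM in WT and from 0.321 and 0.950 CPM to 28.6 and 42.5 CPM in KO. Otx2, a homeobox factor that drives the transition, went from 15.9 and 12.9 CPM to 109 and 85.8 CPM in WT and from 20.0 and 22.1 CPM to 145 and 127 CPM in KO. The genotypes overlapped at 32 h for Fgf5, and the KO libraries lay above the WT libraries for Otx2.

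The interaction was 1.85 ± 1.05 for Fgf5 (adjusted p = 0.49), -0.06 ± 0.22 for Otx2 (0.96) and -0.08 ± 1.01 for Pou3f1 (1.00). The errors of Fgf5 and Pou3f1 are wide, and a missed threshold does not show equal responses. The de novo DNA methyltransferases gave 0.25 ± 0.20 for Dnmt3a (0.68) and -0.65 ± 0.25 for Dnmt3b (0.25). With the line as a block, Fgf5 (1.86, adjusted p = 0.0077), Dnmt3b (-0.64, 0.023) and Grhl2 (-1.78, 6.4e-05), an epithelial transcription factor, were called. In all, 6 of the 20 were called there, against 8.69% of all genes.

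By edgeR's quasi-likelihood test, which called 1.86% of all genes, 0 of 12 general pluripotency genes were called (2 at an unadjusted p under 0.05, 1 by DESeq2). Pou5f1 was at 0.16 ± 0.16 and Sox2 at 0.11 ± 0.24. The Fgf and Erk list gave 1 higher (Egr1) and 2 lower (Etv4 and Etv1) of 22, and the Erk phosphatase Dusp6, at -1.23 ± 0.66 (adjusted p = 0.45), was called only with the line as a block (-1.21, adjusted p = 0.0027). Of 17 Wnt targets, Notum was called higher and Cdx2 lower; Axin2, which reports Gsk3 inhibition, fell by 2.78 in WT and by 2.26 in KO on the log2 scale. Of 13 Nodal pathway genes only Pcsk6 was called. Lefty1 and Lefty2, feedback inhibitors of Nodal, had interactions of 1.45 ± 0.50 (0.18) and 1.15 ± 0.39 (0.17) here, and were called in the separate libraries at 2.70 (adjusted p = 0.013) and 3.26 (adjusted p = 0.0020). Of 12 genes of Lif and Stat3 signalling, Klf4 and Tfcp2l1 were called, and both also stand in the naive list. With the line as a block, where 8.69% of all genes were called, the counts were 2 of 12 general pluripotency, 8 of 22 Fgf and Erk, 2 of 17 Wnt, 3 of 13 Nodal and 6 of 12 Lif and Stat3 genes.

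No gene of the lists that Ehmt1 and Ehmt2 are known to silence (54 germline, Magea and 2-cell-like genes tested) was called for the interaction by edgeR, and these are too few genes for a count of 0 to stand apart from the 1.86% called over all genes. Of 20 genes of H3K9 methylation itself 0 were called (3 at an unadjusted p under 0.05, 0 by DESeq2, 1 with the line as a block), and Ehmt2 was at 0.21 ± 0.27 (adjusted p = 0.84). For 34 germline genes, 32 were tested and 0 called, although 13 were higher in KO in 2i and 22 rose in WT (4 at an unadjusted p under 0.05, 2 by DESeq2 and 3 with the block, all lower). Of 14 Magea genes and their neighbours, 10 were tested, 9 were higher in KO in 2i and 9 at 32 h, and 0 were called for the interaction (0 at an unadjusted p under 0.05, 0 by DESeq2). Of 19 2-cell-like genes, 12 were tested; 12 were higher in KO in 2i and 8 at 32 h. For the interaction 0 of these 12 were called, against 3 at an unadjusted p under 0.05, 0 by DESeq2 and 5 with the line as a block, all lower. Their counts are uncertain where near-identical copies share reads. Among 13 DNA methylation genes, 12 were tested, and Tet3 was called lower and Zfp57 higher (3 called with the block).

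Over 11 lists of other lineages and functions, 8 of 170 genes tested (4.71%) were called, against 1.86% of all genes. The counts called were 1 of 12 neural genes (Lrp2), 0 of 10 primitive streak genes, 0 of 16 primitive endoderm genes, 2 of 14 trophoblast genes (Tead4 higher, Cdx2 lower) and 0 of 8 fibroblast markers. They were 0 of 16 p53 targets, 2 of 31 imprinted genes (Plagl1 higher, Igf2r lower), 2 of 18 adhesion genes (Cldn4 higher, Cdh2 lower), 1 of 11 Bmp targets (Id3), 0 of 16 oxidative phosphorylation genes and 0 of 22 ribosomal protein genes. Of the lists at 0, unadjusted p under 0.05 held for 2 streak, 3 primitive endoderm, 2 fibroblast, 2 p53, 0 oxidative phosphorylation and 0 ribosomal protein genes, and DESeq2 called 1 p53 target and 0 of the others. With the block the counts were 3 neural, 1 streak, 2 primitive endoderm, 3 trophoblast, 0 fibroblast, 2 p53, 5 imprinted, 3 adhesion, 3 Bmp, 0 oxidative phosphorylation and 0 ribosomal protein genes, at 8.69% of all genes. Igf2r, the receptor for insulin-like growth factor 2, was 74.0 and 92.5 CPM in WT and 213 and 192 CPM in KO at ESC, and 114 and 107 CPM in WT and 158 and 134 CPM in KO at 32 h. It rose in WT and fell in KO, and its interaction (-0.89 ± 0.18, adjusted p = 0.028) was lost without any 1 of 6 libraries (up to 0.13). On the X chromosome, 10 of 619 tested genes were called (1.62%), near the share of all genes.

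Some called genes lay close together. Within 100 kb, 28 of the 291 (9.62%) had a called neighbour, against 6.71% of uncalled genes. These formed 19 pairs, of which 15 had the same sign of interaction. Of the 291, 189 had an interaction above 0, so a shared sign is common among them. Pairs within 1 run of neighbours, as in the Lrriq4 and Nefl groups, are not separate, and some of their genes overlap. The share with the same sign was not tested. Besides the Lrriq4 and Nefl groups, Zfp57 on chromosome 17 lay beside H2-M5, which also failed to fall and was picked out after its values were seen.

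The promoters of the classes were searched for letters that bear on the network. RefSeq promoters (250 bases before to 50 after the start, GRCm38.p6) were matched for 12234 of the genes tested. The Esrrb motif TCAAGGTCA (both strands) was in 0.327% of them and, among class members, only in the promoter of Msrb2, which failed to fall and was higher in 2i. The G-rich letters GGGNGGG (both strands, overlaps allowed) were in 70.3% of all promoters, in 81.5% of the 54 that failed to fall with no call in 2i, 87.7% of the 57 lower in 2i and 82.0% of the 61 that failed to rise and were higher in 2i. The E-box CACGTG was in 11.3% of all promoters and in 11.1%, 10.5% and 13.1% of these 3 sets. A match is a description of letters, not of a bound site.

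For 1 gene of each of 4 sets, taken as the named gene with the smallest interaction p, by a rule set after values were seen, the promoter is shown 5′ to 3′ with GGGNGGG or its reverse complement in capitals. Cdhr1 (failed to fall, not called in 2i) is at chr14:37098298-37098597 on the minus strand, Lgals3 (failed to fall, lower in 2i) at chr14:47373610-47373909 on the plus strand, Cdc14b (failed to rise, not called in 2i) at chr13:64274939-64275238 on the minus strand and Maml2 (failed to rise, higher in 2i) at chr9:13297708-13298007 on the plus strand. The Cdc14b promoter holds no match, and the other 3 hold 2 or 3.
Cdhr1: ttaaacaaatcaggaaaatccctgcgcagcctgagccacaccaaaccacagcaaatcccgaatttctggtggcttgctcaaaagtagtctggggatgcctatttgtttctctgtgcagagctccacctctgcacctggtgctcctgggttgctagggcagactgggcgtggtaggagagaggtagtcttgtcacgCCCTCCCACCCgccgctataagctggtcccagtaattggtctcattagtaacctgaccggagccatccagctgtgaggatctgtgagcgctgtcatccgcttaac
Lgals3: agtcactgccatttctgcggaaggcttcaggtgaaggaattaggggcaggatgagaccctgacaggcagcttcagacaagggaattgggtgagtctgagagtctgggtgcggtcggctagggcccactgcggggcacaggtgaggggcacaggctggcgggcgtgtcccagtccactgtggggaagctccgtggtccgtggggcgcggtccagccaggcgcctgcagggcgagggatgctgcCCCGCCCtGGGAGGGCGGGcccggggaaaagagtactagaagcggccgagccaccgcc
Cdc14b: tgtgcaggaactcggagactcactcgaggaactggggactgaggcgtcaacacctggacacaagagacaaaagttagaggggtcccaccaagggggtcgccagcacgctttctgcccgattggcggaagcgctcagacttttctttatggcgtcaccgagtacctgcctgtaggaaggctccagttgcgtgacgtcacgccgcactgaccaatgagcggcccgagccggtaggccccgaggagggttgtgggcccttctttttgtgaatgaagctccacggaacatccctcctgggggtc
Maml2: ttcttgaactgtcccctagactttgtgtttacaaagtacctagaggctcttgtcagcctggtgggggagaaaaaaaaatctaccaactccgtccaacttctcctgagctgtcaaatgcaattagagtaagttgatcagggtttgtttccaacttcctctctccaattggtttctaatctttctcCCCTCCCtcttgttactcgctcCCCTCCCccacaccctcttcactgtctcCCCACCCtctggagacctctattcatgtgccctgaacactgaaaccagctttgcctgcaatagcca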

How the data were processed

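RNA was sequenced from RGd2 mouse embryonic stem cells, as polyA libraries (16: WT, Ehmt1 KO, Zic2 KO and double KO, each with 2 lines at ESC and 32 h) and as ribo-depleted libraries (WT and Zfp281 KO), per the labels. The deposited table holds raw read counts per gene, as the authors made them, against GRCm38/mm10; the submitters' processing notes name edgeR, and for the aligner, the counter and its strand setting the sources used here give nothing. Of 24116 gene IDs, 24061 matched a RefSeq symbol (GRCm38.p6).

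The 16 polyA libraries (19013882 to 28777604 counts) were fitted together with edgeR 4.0.16 (trimmed mean of M values normalisation, filterByExpr, robust quasi-likelihood test), and p-values were adjusted by Benjamini-Hochberg over all 15667 genes tested. The 4 genotypes thus shared 1 estimate of the spread. Calls were made at an adjusted p under 0.05. A gene called for the interaction failed to fall or to rise by the direction of the called WT change, and was split by its call between KO and WT in 2i. Levels are CPM on totals scaled by the normalisation factors. Log2 values are given ± SE. The double KO and Zic2 KO libraries, and the ribo-depleted libraries (18086421 to 35911590 counts), were each fitted alone. Replicates are separate lines, so p-values measure the spread between lines. In each group the 2 libraries differed by more than counting noise, and by unequal amounts. As chi-square per degree of freedom, this was 27.9 in WT at ESC and 6.78 in WT at 32 h. It was 23.2 and 27.9 in Ehmt1 KO, 6.10 and 6.08 in Zic2 KO and 35.0 and 23.6 in double KO, at ESC and 32 h. A shared spread can thus be too small for some groups and too large for others. What this did to the calls was not tested.

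The labels name the same line at both stages, so the line pairs the stages by source; the correlation of replicate differences between stages was 0.047 in WT, 0.462 in Ehmt1 KO, 0.179 in Zic2 KO and 0.530 in double KO. Values with the line as a block stand beside counts that they move by over 1.5 times.

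In each class, split by the call in 2i, the genes named are up to 8 with the largest interaction among those called, with at least 5 CPM in 1 group mean and both KO lines outside both WT lines, plus up to 5 called genes of each list, and list members as values; some genes that this rule names are not reported here. Members, lists and classes were chosen with earlier results of these data known. The fit was tested on simulated counts, drawn with the spread estimated from the data and with no line effect. It called 44 of 100 interactions of 2-fold and 78 of 100 of 4-fold in the right direction, with 5 false calls. More of the 2-fold interactions were thus missed than found.

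Alternatives were DESeq2 (1.42.0) and its size factors, no filter on low counts, only the groups compared, a stricter threshold, the line as a block and leaving out each library or line. Libraries at 16 h and Zfp281 KO effects were not used here.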

Additional observations from a re-analysis of the deposited data

Results flagged for a closer look

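Each called gene passed the test of the difference between the KO and WT responses. In 5 of the genes described, both responses were called by edgeR and pointed in opposite directions. Maml2, with an interaction of -2.99, rose by 1.80 in WT and fell by 1.19 in KO on the log2 scale. Aldh1l2, a mitochondrial folate enzyme, had an interaction of -2.06 ± 0.34 (adjusted p = 0.011): it was 5.51 and 5.86 CPM in WT and 5.09 and 5.43 CPM in KO at ESC, and 12.0 and 10.5 CPM in WT and 2.51 and 2.47 CPM in KO at 32 h. The Aldh1l2 call was lost without WT 32 h replicate 1 (0.061), and in the separate libraries its value was -1.27 (adjusted p = 0.17). Susd2, a membrane protein, had an interaction of 2.70 ± 0.52 (adjusted p = 0.021): it was 3.99 and 3.61 CPM in WT and 4.08 and 4.64 CPM in KO at ESC, and 1.27 and 1.45 CPM in WT and 6.89 and 13.5 CPM in KO at 32 h. The KO libraries of Susd2 at 32 h differed from each other, and its call was lost without any 1 of 4 libraries (up to 0.11). Igf2r, at -0.89, changed by 0.41 in WT and -0.47 in KO. Cldn4, at 1.92, changed by -1.01 in WT and 0.92 in KO.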

How the results depend on the processing

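The number of genes called for the interaction moved from 291 to 632 with DESeq2, 132 with only the groups compared, 48 at an adjusted p under 0.01 and 1361 with the line as a replicate block. Over the same alternatives, in that order, the genes that failed to fall numbered 302, 91, 30 and 601. Those that differed in 2i numbered 164, 53, 17 and 251, and those that did not 138, 38, 13 and 350. The genes that failed to rise numbered 230, 33, 14 and 500. Those that differed in 2i numbered 173, 28, 13 and 315, and those that did not 57, 5, 1 and 185. By unadjusted p in 2i, 10 genes that failed to rise did not differ there. The KO response was called for 1653 genes with only the groups compared and 5509 with the block. The interaction in the separate libraries was called for 881 genes with DESeq2 and 1876 with the block.

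Leaving out 1 library gave 42 to 295 interaction calls, 3499 to 5704 in the WT response, 2082 to 3760 in the KO response, 2590 to 4376 between genotypes in 2i and 2191 to 4342 at 32 h. The genes that failed to fall numbered 23 to 184 (11 to 89 differing in 2i, 12 to 95 not), and those that failed to rise 16 to 120 (13 to 106 differing, 1 to 25 not). The separate libraries gave 35 to 900 and the ribo-depleted WT response 3953 to 6086. Leaving out a line at both stages leaves 1 library in 2 groups, assumed to vary like the rest. In the order Ehmt1_WT, Zic2_WT, KO1 and KO2, it gave 2, 19, 46 and 187 interaction calls. The genes that failed to fall were then 1, 10, 27 and 117 (0, 5, 13 and 53 differing in 2i; 1, 5, 14 and 64 not), and those that failed to rise 1, 9, 17 and 55 (1, 8, 16 and 44 differing; 0, 1, 1 and 11 not). The WT response was 2088 and 3547 without each WT line, the KO response 2020 and 1119 without each KO line, the 2i difference 2190 and 2786 without Ehmt1_WT and KO1, and the 32 h difference 2155, 2164 and 2586 without Ehmt1_WT, Zic2_WT and KO1. The separate libraries gave 0 and 0 without either Zic2 KO line, and 2320 and 2754 without either double KO line. The cause of these shifts was not tested.

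Of 85 called genes with per-gene values, 0 changed direction under any alternative run; 85 kept the call with the block and with DESeq2, 82 with DESeq2 size factors, 75 with no filter and 41 with only the groups compared. Leaving out 1 library kept between 21 (without WT 32 h replicate 2) and 68 (without KO2 at 32 h). Without the line Ehmt1_WT at both stages, each of these genes but Cdhr1 lost the call. Depth and 2 lines a group limit what can be called, so a missed call is not an absent difference.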
